A study of Mus musculus with 6 samples.

Results

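The genes described here move calcium into, out of and between the compartments of a cell: the calcium pumps of the endoplasmic reticulum (Atp2a2, Atp2a3) and of the plasma membrane (Atp2b1, Atp2b4), the IP3 receptors (Itpr1, Itpr2, Itpr3), and the store sensors and entry channel of store-operated calcium entry (Stim1, Stim2, Orai1). They were chosen by symbol, as probe sets that carry exactly 1 gene symbol equal to one of these 10, with the brightest probe set kept for each gene. Of the 10 genes 9 were measured, among 22180 genes tested in all. Itpr1 was not analysed here.

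Cultured cells from the exorbital lacrimal gland of female mice were profiled on 6 microarrays, 3 from TSP1 null mice and 3 from wild-type C57BL/6J mice. The null animals lack thrombospondin-1 (TSP1, gene Thbs1), a glycoprotein that cells secrete into the matrix, and serve in the series as a model of dry eye disease. The labels used here do not state the genetic background of the null mice, the age of either group or the number of animals behind each culture. Both groups were collagenase-digested glands grown in medium with serum for weeks, and neither was treated. The arrays of a group are titled as biological replicates, and where they share a culture the spread between them is technical.

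Contraction of a myoepithelial cell is driven by calcium. In the general scheme, a hormone or transmitter acts through phospholipase C to make IP3, IP3 opens its receptors on the endoplasmic reticulum, and calcium leaves the store. STIM proteins in the reticulum membrane sense the emptied store and open ORAI channels in the plasma membrane, while the pumps of the reticulum refill the store and the pumps of the plasma membrane extrude calcium from the cell.

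The signal of Atp2b4 was 1.67-fold higher and that of Atp2a2 1.27-fold higher in TSP1 null cultures than in wild-type cultures, with no overlap between the groups in either gene. The groups overlapped in the other 7 measured genes, and their log2 differences lay between -0.20 (Atp2b1) and 0.20 (Stim1). No gene passed the threshold of the test, an adjusted p of 0.05 over all genes (limma, Benjamini-Hochberg): 0 of the 9 and 0 of 22180 (0%), with a smallest adjusted p of 0.161. At an unadjusted limma p under 0.05 there were 2341 genes, or 10.6% of those tested, with 6.28% higher and 4.27% lower in the null group (8.26% and 3.19% after centring each array on its median). An ordinary linear model called 0 genes too, with 1904 at an unadjusted p under 0.05. Of the 9 genes 2 lay under that unadjusted threshold, Atp2b4 and Atp2a2, both higher in the null group. The null arrays lay wholly above the wild-type arrays in 2 of the 9 genes, against 10.1% of all genes, and wholly below in 0 of the 9, against 5.75%. With 9 genes these counts are a description, not evidence that calcium genes differ from others. A positive difference was found in 6 of the 9 genes and in 55.1% of all genes. The median difference of the 9 genes was 0.12 and that of all genes 0.02 on the log2 scale. The former turned to -0.035 when the second null array was left out, and to -0.032 when the first wild-type array was. With those arrays left out in turn, 34 genes and 1 gene passed the threshold, with 0 of the 9 genes among them.

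**Figure D1:**
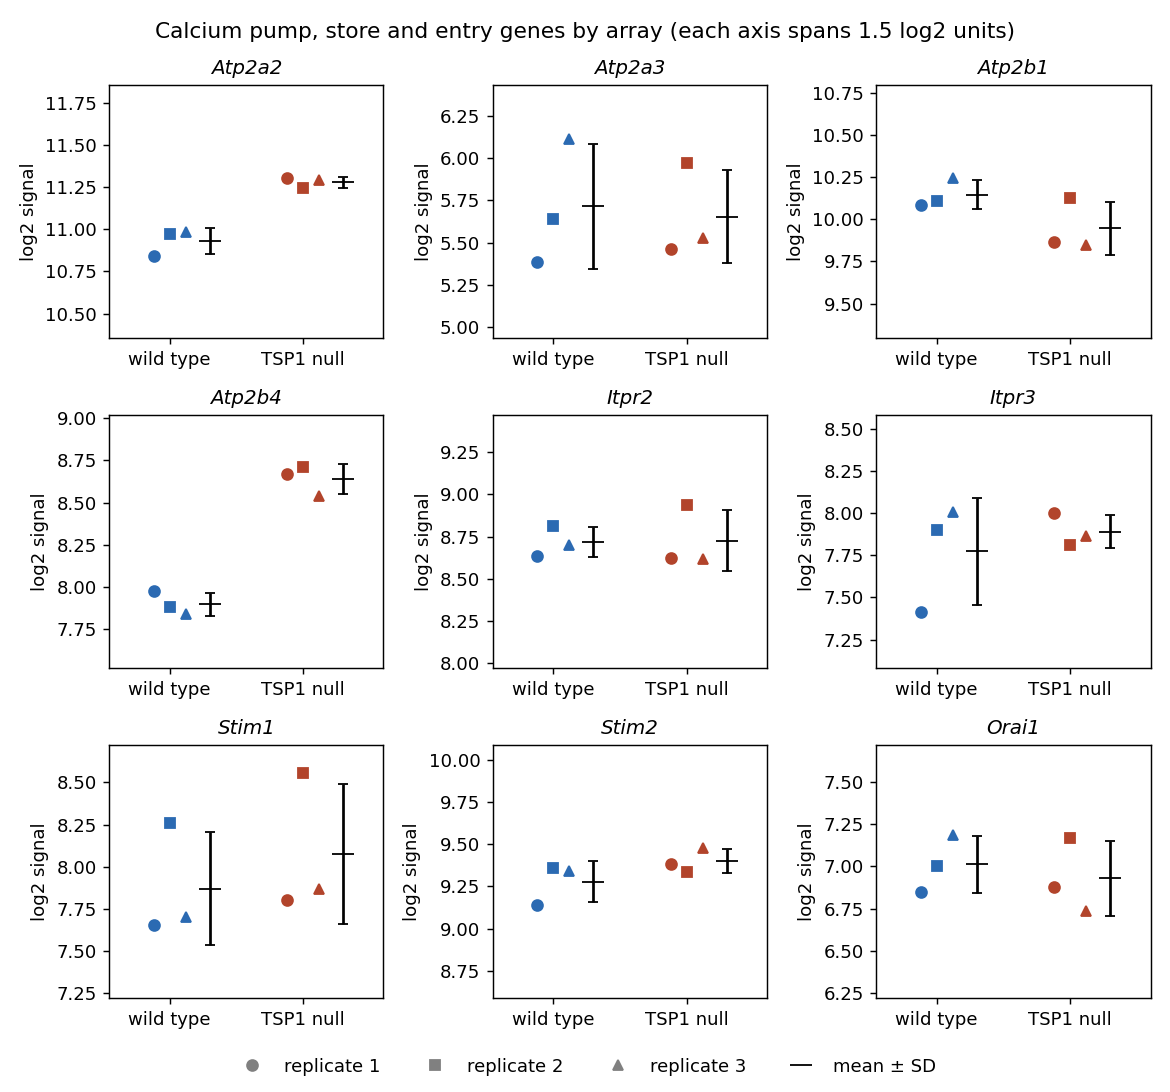
Log2 signal (vertical axes) of the 9 measured genes on each wild-type (blue) and TSP1 null (red) array, with the mean and SD of the 3 arrays of each group in black. Every axis spans the same number of log2 units. The groups are separate in Atp2a2 and Atp2b4 and overlap in the other 7 genes.

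All values are RMA log2 signals, on which a difference of 1 is a doubling. The level of a probe set depends on its probes, so the levels of different genes are not ranked. RMA compresses the differences of dim probe sets. Array medians lay between 5.25 and 5.32 and correlations between arrays between 0.978 and 0.988. Thbs1 itself had a lower but still bright signal in the null arrays, at 12.92 ± 0.17 against 13.60 ± 0.13 (SD, n = 3 per group), a log2 difference of -0.68 (SE 0.13, adjusted p = 0.25, limma). The position of its probes with respect to the disruption is unknown here, so it checks the labels only weakly. Of 7 measured myoepithelial markers Acta2, the smooth muscle actin, lay between 13.85 and 14.01, far above the array medians. Trp63, the transcription factor of basal epithelium, lay between 4.47 and 4.93, below them. Macrophage markers were present throughout. Their mean level was 7.57 to 10.14 in the null arrays and 9.98 to 10.78 in the wild-type arrays, with 18 of 18 markers lower in the null group and 0 past the threshold. In such mixed cultures, fewer cells of a type and less RNA per cell cannot be told apart.

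Among the plasma membrane pumps the 2 measured isoforms pointed in opposite directions. Atp2b4 encodes PMCA4, one of the pumps that extrude calcium from the cell. Its log2 signals were 8.67, 8.71 and 8.54 on the null arrays and 7.97, 7.88 and 7.84 on the wild-type arrays. Every null array was above every wild-type array, and the gap between the groups was wider than the range within either. The difference was 0.74 (SE 0.11, 95% interval 0.49 to 0.99, adjusted p = 0.178, limma), and Atp2b4 had the 18th smallest p among 22180 genes. Leaving out any 1 array kept the difference between 0.71 and 0.79. Over all 15 alternative analyses its adjusted p ran from 0.0771 to 0.824.

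Atp2b1 encodes PMCA1, the plasma membrane pump found in most tissues. It measured 9.87, 10.12 and 9.85 on the null arrays and 10.08, 10.11 and 10.25 on the wild-type arrays. Only the second null array lay among the wild-type arrays, and the remaining null arrays were the lowest of the 6. Null minus wild type came to -0.20 (SE 0.12, 95% interval -0.48 to 0.08, adjusted p = 0.606, limma). With the mean of the macrophage markers as a covariate it was -0.06.

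The balance of the pair was examined as the log2 signal of Atp2b4 minus that of Atp2b1 within each array. Its absolute value is set by the probes and only its change between groups has a meaning. It was -1.19, -1.41 and -1.30 on the null arrays and -2.11, -2.23 and -2.40 on the wild-type arrays. The null arrays were all higher, by 0.94 on average (SE 0.11). An exact permutation test gave p = 0.1, two-sided, which is the minimum possible with 3 against 3, and p = 0.4 after adjustment over the 4 pairs compared. Atp2b4 was chosen with its difference known, so this shift is a description.

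**Figure D2:**
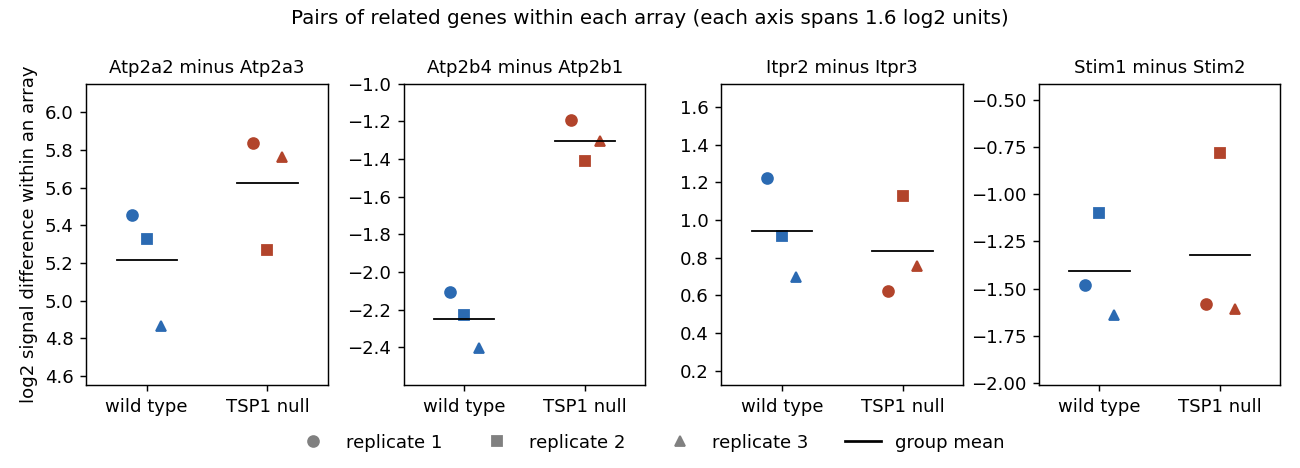
Log2 signal of a gene minus that of a related gene within each array (vertical axes) for 4 pairs, with wild-type arrays in blue, TSP1 null arrays in red and group means as black lines. The groups are separate only for Atp2b4 minus Atp2b1, where the null arrays lie between -1.41 and -1.19 and the wild-type arrays between -2.40 and -2.11.

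Among the pumps that refill the store, Atp2a2 encodes SERCA2, the widely expressed calcium pump of the endoplasmic reticulum. Its log2 signals were 11.30, 11.24 and 11.29 on the null arrays and 10.84, 10.97 and 10.98 on the wild-type arrays. The null arrays agreed to within 0.06 and all lay above the wild-type arrays, of which the first was the lowest. The groups differed by 0.35 (SE 0.10, 95% interval 0.11 to 0.59, adjusted p = 0.347, limma). It stayed between 0.30 and 0.37 when any 1 array was left out.

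Atp2a3 encodes SERCA3, a pump known from blood cells, endothelium and some epithelia. It was just above the array medians, at 5.46, 5.97 and 5.53 on the null arrays and 5.39, 5.64 and 6.12 on the wild-type arrays. The groups overlapped fully, and the difference of -0.06 (SE 0.22, 95% interval -0.56 to 0.44) was smaller than the SD within either group (0.28 and 0.37). The interval limits the signal, and near the background a signal understates a change of the transcript. The difference of Atp2a2 minus Atp2a3 within arrays was 0.41 higher in the null group (SE 0.25) with overlap between the groups (exact permutation p = 0.3, two-sided, or 0.6 adjusted over the 4 pairs).

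Markers of other cells were set beside the pump values. The mean level of the 7 myoepithelial markers was 9.03 to 9.31 in the null arrays and 8.88 to 8.98 in the wild-type arrays. This mean was separated between the groups, but 4 of 7 markers were higher and 3 lower. Their mean difference was 0.21 and their median difference 0.062. The null arrays lay wholly above in 2 of the 7, Krt14 and Trp63, beside 10.1% of all genes. Krt14, a basal keratin, had the largest difference among those markers, at 0.89 (SE 0.20). Its wild-type mean of 5.23 was near the array medians. Acta2 had -0.05 (SE 0.10). The mean of the 9 acinar markers was also separated, at 4.78 to 4.91 against 4.98 to 5.07, levels below the array medians. Of these markers 4 were higher and 5 lower, with a median difference of -0.016. The null arrays lay wholly below in 3 of the 9, beside 5.75% of all genes. Dcpp1 (-0.88) and Dcpp3 (-0.76), secreted proteins, had the largest differences among them. Dcpp2, on the same list, had 0.068 (SE 0.22). Of the 7 ductal and luminal markers 6 were higher, with a median difference of 0.25, and the null arrays lay wholly above in 3, beside 10.1% of all genes. Their mean level overlapped, at 6.16 to 6.82 against 5.84 to 6.24. Of the 7 endothelial markers 5 were lower, with a median difference of -0.38, and the null arrays lay wholly below in 2, beside 5.75% of all genes. Their mean level overlapped too, at 5.04 to 5.32 against 5.19 to 5.95. Of the 10 fibroblast markers 5 were higher and 5 lower, with a median difference of -0.065. The null arrays lay wholly above in 3 (Col1a1, Col1a2 and Col3a1), beside 10.1% of all genes. Of the 6 pericyte markers 2 were higher and 4 lower, with a median difference of -0.16. The null arrays lay wholly above in the 2 higher ones of the 6, Notch3 and Pdgfrb, beside 10.1% of all genes. The mean level of either list overlapped between the groups. No marker of these lists passed the threshold (0 in each). The part of these cells in the pump values was not tested. The macrophage list had a median difference of -1.44, with 13 of 18 markers lower at an unadjusted limma p under 0.05, beside 4.27% of all genes. The null arrays lay wholly below in 3 of the 18, beside 5.75% of all genes. The mean level of this list overlapped, at 7.57 to 10.14 against 9.98 to 10.78. On the null arrays it was 9.32, 10.14 and 7.57, so the third stood far below the others. The 18 markers are not independent of each other. Because this mean itself differed between the groups, a fit with 3 arrays per group cannot tell its part from that of the group. With it as a covariate the difference of Atp2b4 was 0.81 (SE 0.15) and that of Atp2a2 0.35 (SE 0.15), against 0.74 and 0.35 without it. Their SE was larger with this term, and the unadjusted limma p of Atp2a2 went from 0.0101 to 0.0529.

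The IP3 receptors release calcium from the store. Itpr2 encodes the type 2 receptor, known from secretory glands and heart muscle. It measured 8.63, 8.94 and 8.62 on the null arrays and 8.63, 8.81 and 8.70 on the wild-type arrays. The second null array was the highest and the other two null arrays the lowest, and the means of the groups were nearly equal, with a difference of 0.01 (SE 0.13, 95% interval -0.29 to 0.31). Itpr3 encodes the type 3 receptor, known from exocrine acini and other epithelia. It measured 7.999, 7.81 and 7.86 on the null arrays and 7.41, 7.90 and 8.01 on the wild-type arrays.

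The first wild-type array stood apart as the lowest for Itpr3, and the other wild-type arrays lay within or beside the null values. The difference was 0.12 (SE 0.17, 95% interval -0.28 to 0.51), and without the first wild-type array it was -0.06. A dimmer second probe set of Itpr3, with 5.34 in the null and 5.39 in the wild-type mean, had a difference of -0.05. The 2 receptors relative to each other differed by -0.11 between the groups (SE 0.21, exact permutation p = 0.6, two-sided, or 0.8 adjusted over the 4 pairs).

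The store sensors and the channel gave overlapping groups as well. Stim1 encodes the sensor that couples store emptying to ORAI channels. It measured 7.80, 8.55 and 7.87 on the null arrays and 7.65, 8.26 and 7.70 on the wild-type arrays. In each group 1 array, the one titled replicate 2, was clearly above the other two. The SDs were 0.42 and 0.34, and Stim1 had the largest SE of the 9 genes. The difference was 0.20 (SE 0.24, 95% interval -0.36 to 0.77), or -0.04 with the second null array left out and 0.53 (SE 0.29) with the macrophage covariate.

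Stim2 encodes the related sensor that responds to small drops of store calcium. It measured 9.38, 9.34 and 9.48 on the null arrays and 9.14, 9.36 and 9.34 on the wild-type arrays. Here the first wild-type array was the lowest and, among the null arrays, the second. The difference was 0.12 (SE 0.11, 95% interval -0.14 to 0.38), or 0.05 without the first wild-type array. Stim1 relative to Stim2 differed by 0.08 between the groups (SE 0.31, exact permutation p = 0.8, two-sided, also 0.8 adjusted over the 4 pairs).

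Orai1 encodes the pore subunit of the store-operated channel. It measured 6.88, 7.17 and 6.74 on the null arrays and 6.85, 7.002 and 7.18 on the wild-type arrays. High and low values occurred in both groups, and the difference was -0.08 (SE 0.15, 95% interval -0.43 to 0.27). For the 7 genes whose groups overlapped, each interval included 0, and the widest, that of Stim1, also included the difference seen for Atp2b4.

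**Figure D3:**
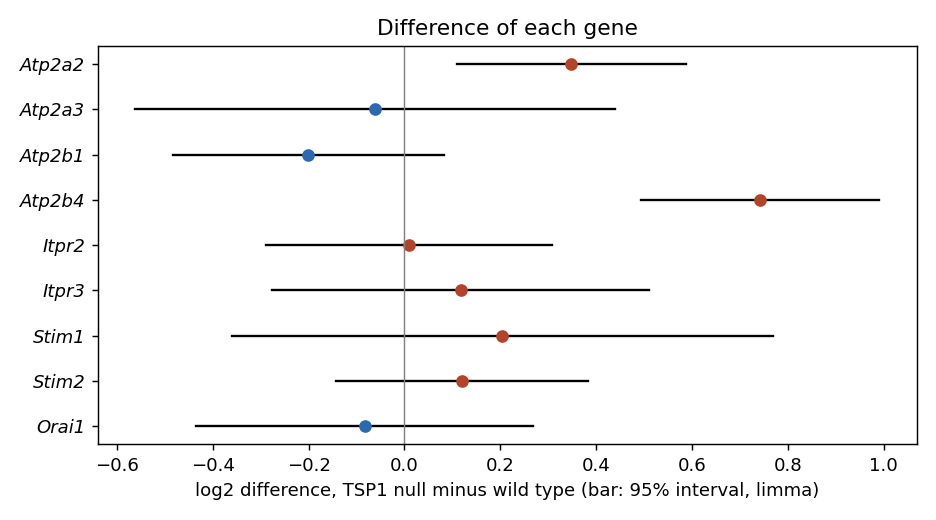
Log2 difference, TSP1 null minus wild type (horizontal axis), of each measured gene (points, red above 0 and blue below) with its 95% interval from limma, not adjusted for the number of genes. The intervals of Atp2a2 (0.11 to 0.59) and Atp2b4 (0.49 to 0.99) lie above 0, and the other 7 include it.

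The arrays of a group were uneven. The first wild-type array was the lowest of its group in 8 of the 9 genes, all except Atp2b4, while over all genes it was the lowest of its group in 39.7%. It was the lowest of all 6 arrays in 5 of the 9 genes, against 24.2% over all genes. The second null array was the highest of its group in 6 of the 9 genes, against 35.2% over all genes. The first wild-type array had the highest fibroblast marker level (11.25, against 10.16 to 10.94 on the other 5) and the lowest macrophage level of its group (9.98). The second null array had the highest fibroblast (10.94) and macrophage (10.14) levels of its group. The part of these cells in the array pattern was not tested. The genes share each array's RNA and normalization, so the 9 are not independent of each other.

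The profiles most like those of the pumps were found as the smallest root mean square difference between centred log2 values over the 6 arrays. For Atp2b4 they were Lrp5, a Wnt co-receptor (0.057), Emilin1, an elastic fibre glycoprotein (0.060), and Man2a2, a mannosidase of glycan processing (0.073). Their own differences between the groups were 0.74, 0.81 and 0.66. For Atp2a2 they were Ctdp1, a phosphatase of RNA polymerase (0.026), Brap (0.030) and Dnajc14, a DNAJ family chaperone (0.030), with differences of 0.35, 0.34 and 0.32. Their differences and the separation of their groups follow from the choice by likeness and are no finding.

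Other genes of calcium handling were taken from 6 lists with 64 measured of 73 genes. None passed the threshold (0 in each direction), 32 had a positive and 32 a negative difference, and their median difference was -0.00099. At an unadjusted limma p under 0.05 there were 3 higher and 1 lower of the 64, beside 10.6% of all genes in either direction. The null arrays lay wholly above the wild-type arrays in 6 of the 64 genes, beside 10.1% of all genes, and wholly below in 2, beside 5.75%.

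Among the other pumps and exchangers (10 measured, 3 positive and 7 negative) the 2 genes of smallest p pointed opposite ways. Slc24a3, a potassium-dependent sodium-calcium exchanger, measured 6.86, 7.85 and 7.10 on the null arrays and 6.46, 6.60 and 6.26 on the wild-type arrays, a difference of 0.83 (SE 0.25, adjusted p = 0.347, limma). The groups did not overlap, and the second null array was far above the other two. Slc8b1, the sodium-calcium exchanger of the mitochondrial inner membrane, measured 7.59, 7.81 and 7.51 on the null arrays and 7.87, 8.19 and 8.33 on the wild-type arrays. Its difference was -0.49 (SE 0.15, adjusted p = 0.363), again with no overlap.

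Among the calmodulin, calcineurin and NFAT genes, which act downstream of calcium entry (12 measured, 5 positive and 7 negative), Nfatc4 measured 8.43, 7.89 and 8.39 on the null arrays and 7.77, 7.25 and 7.75 on the wild-type arrays. The second array was the lowest in both groups, and the groups did not overlap. The difference of this NFAT transcription factor was 0.65 (SE 0.20, adjusted p = 0.363, limma). Camk2g, a calmodulin-dependent kinase subunit, had a difference of 0.24 (SE 0.11).

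In the list of store buffers and pump regulators (16 measured, 11 positive and 5 negative) the smallest p values belonged to Rcn3, a calcium-binding protein of the secretory pathway, at 0.28 (SE 0.11), and to Hspa5, the chaperone BiP, at 0.32 (SE 0.14). The null arrays lay above the wild-type arrays for Rcn3 and overlapped them for Hspa5. Calr, the main luminal calcium buffer calreticulin, was not named by the rule for examples and was looked up afterwards, with a difference of 0.06 (SE 0.10).

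The remaining lists had 0 genes at an unadjusted limma p under 0.05. Of the other genes of store-operated entry (10 measured, 6 positive and 4 negative), Stimate, a STIM activator of reticulum-plasma membrane contacts, had a difference of 0.24 (SE 0.16), and Saraf, which limits store-operated entry, had 0.21 (SE 0.14). Of the release channels and receptor partners (10 measured, 3 positive and 7 negative), Mrvi1, an IP3 receptor partner, had -0.28 (SE 0.23), and Mcoln1, a lysosomal cation channel, had -0.23 (SE 0.23). Of the mitochondrial uptake genes (6 measured, 4 positive and 2 negative), Micu2, a gatekeeper of the calcium uniporter, had 0.26 (SE 0.15), and Mcu, its pore, had 0.17 (SE 0.14). The groups overlapped in each of these 6 genes.

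**Figure D4:**
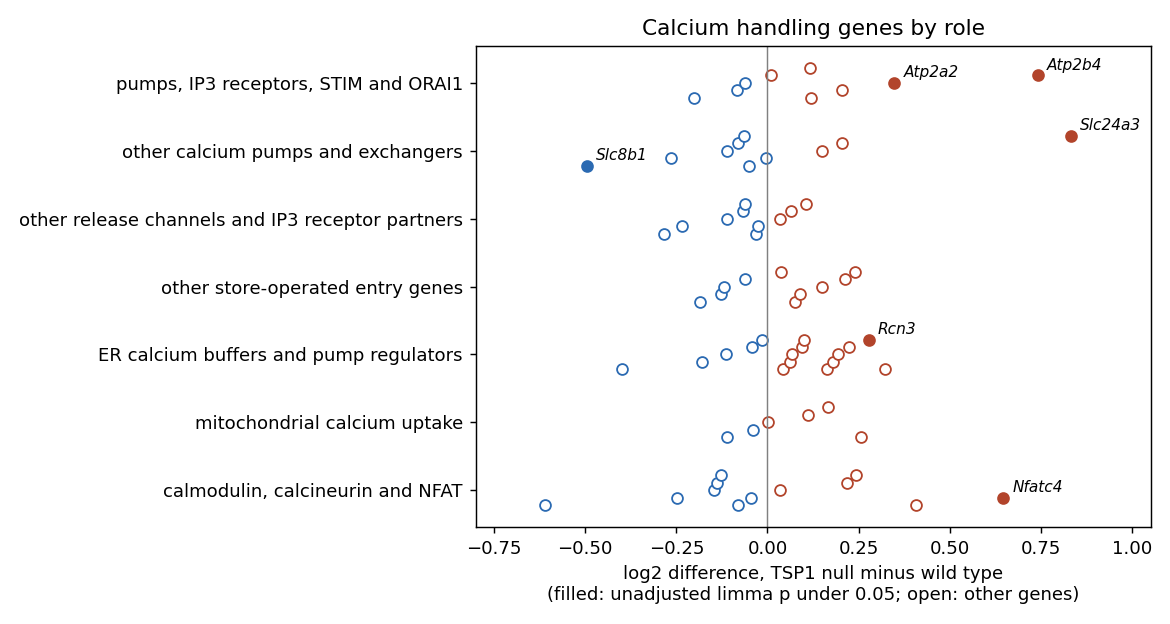
Log2 difference, TSP1 null minus wild type (horizontal axis), of the 9 genes (top row) and of 64 other calcium handling genes by role. Filled points have an unadjusted limma p under 0.05, open points do not, and no gene passed an adjusted p of 0.05. Named filled points are Atp2a2, Atp2b4, Slc24a3, Rcn3 and Nfatc4 above 0 and Slc8b1 below 0 (-0.49).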

How the data were processed

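For each array the authors deposited 41345 probe set values, already normalized as log2 signals (a scale inferred from their range). Partek and RMA are named in the submitters' processing notes, without version, setting or genome build. Groups and replicate numbers came from the sample titles.

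Of the probe sets 23521 had exactly 1 symbol in the platform table. Keeping the brightest per gene (mean over 6 arrays) gave 22180 genes, with no intensity filter. All were fitted with limma 3.58.1 (lmFit, eBayes, default prior, two-sided, no covariates) in R 4.3.3, as null minus wild type, and Benjamini-Hochberg adjusted over all genes. SE and 95% intervals of single genes are limma's. SE of pair differences come from the 3 values per group. The procedure was tested on simulated data. The number of arrays, not a depth, limits the precision.

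The genes, the lists of other calcium genes and the markers were chosen with earlier results of these data known. Named were all measured members, the 2 genes of smallest p in each other list, and the 3 most alike profiles of the 2 members of smallest p. Alternatives were quantile normalization, median centring, a filter on dim probe sets, averaged probe sets, another prior, array weights, a replicate block, an unmoderated model, a macrophage covariate and leaving out each array.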

Additional observations from a re-analysis of the deposited data

How the results depend on the processing

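Atp2b4 and Atp2a2 kept their positive difference in all 15 alternatives (0.71 to 0.81 and 0.30 to 0.39), Atp2b1 its negative and Stim2 its positive one, and 0 of the 9 genes passed the threshold in any of them. The other 5 genes changed sign in some, always without passing it; the cause was not tested. With the macrophage list as a covariate Atp2a3 was 0.23, Orai1 0.17, Atp2b1 -0.058, Stim1 0.53, Itpr2 0.17 and Itpr3 0.21, the members at an unadjusted p under 0.05 were 1 (Atp2b4) and such genes overall 1308. With array weights Itpr2 was -0.029. Leaving out 1 array gave -0.22 to 0.14 for Atp2a3, -0.096 to 0.063 for Itpr2, -0.063 to 0.23 for Itpr3, -0.035 to 0.40 for Stim1, -0.20 to 0.013 for Orai1, and -0.035 to 0.16 for the median of the 9 genes, negative without the second null (-0.035) or the first wild-type array (-0.032). It gave 0 to 34 genes past the threshold (34 without the second null, 1 without the first wild-type array), 1487 to 2736 genes at an unadjusted p under 0.05 (1497 without the first null array, 1487 without the last, replicate 3) and 0 to 2 members wholly below the wild type, 2 (Atp2b1 and Itpr2) without the second null array, where 12.3% of all genes were. Members wholly above were 2 to 3, with 3 without the second null (18.2% of all genes) or the second wild-type array (16%). Same-numbered arrays deviated together only for replicate 2 (correlations of -0.14, 0.18 and -0.16), so the numbers were not taken as pairs. With the replicate number as a block the differences are the same, 0 genes passed, and Atp2b4 had an adjusted p of 0.327 (limma). The unadjusted limma p of Atp2a2 went from 0.0101 to 0.0282 with the block. The SE of Stim1 went from 0.24 to 0.12 (adjusted p = 0.623 with the block, limma). Another centring moved the median of all genes from 0.02 to at most 0.06. With 3 arrays per group a difference of the size seen for most members is within the error, and signals near the background limit what a small difference can show.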
